A study of Mus musculus with 20 samples.

Results

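The mitochondrial carriers are transport proteins, nearly all of the inner mitochondrial membrane, and the genes described here are the mouse Slc25a family together with the uncoupling proteins Ucp1, Ucp2 and Ucp3. Members were taken by gene symbol, and a gene was kept if it had at least 10 counts in at least 5 of the 20 libraries. Of the 53311 rows of the count table, 50 matched by symbol and 40 were kept. The rule used abundance only and no difference between groups, but a gene could pass it through the groups where it was high. All 40 were also among the 13560 genes that entered the statistical model.

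RNA was sequenced from the gastrocnemius, a fast calf muscle, in 4 groups of 5 samples. Every sample carried the genotype Cre+:iMSBmal1 fl/fl, so that the control samples too held Cre and floxed alleles of Bmal1, a transcription factor of the circadian clock whose gene is Arntl. They were treated either with vehicle or so as to give the inducible muscle knockout iMSBmal1KO. Unexercised muscles were collected at zeitgeber time 13 (ZT13, counted in hours from lights on). Exercised samples are also recorded at ZT13, and their muscles were collected 1 h after a treadmill run of 30 min. If ZT13 was the time of the run, exercise and a later collection time cannot be told apart. Each treatment thus has a resting and an exercised group, called here resting vehicle, exercised vehicle, resting knockout and exercised knockout. The design asks how loss of BMAL1 and a single bout of exercise each change the muscle, and whether the exercise response differs between genotypes. The agent that induces the knockout, the promoter that drives Cre and the age and sex of the mice are not given in the sources used here. The descriptions of the exercised knockout samples speak of training, whereas their titles speak of acute exercise. The labels do not state that each sample is a separate animal, so p-values measure the spread between these samples.

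The carriers exchange nucleotides, phosphate, metabolites, cofactors and iron between cytosol and matrix, and almost all share a fold of repeated units with paired membrane helices. In muscle, ADP/ATP exchange and phosphate import feed oxidative phosphorylation, and the aspartate/glutamate and oxoglutarate/malate carriers serve the malate-aspartate shuttle. Uncoupling proteins are carriers of the same fold. Ucp1 dissipates the proton gradient as heat in brown fat, and Ucp3 is the form typical of skeletal muscle.

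BMAL1 binds E-box sequences as a dimer with CLOCK, so the promoters of 3 carriers called in a genotype comparison, those held in the RefSeq promoter table, are shown first. Each is the 250 bases before the annotated start from RefSeq (GRCm38.p6), printed 5′ to 3′ on the strand of the gene. Capitals mark the E-box CACGTG and the cAMP response element TGACGTCA; the second motif was added after expression values had been seen.
Slc25a30, chr14:75787038-75787287, minus strand: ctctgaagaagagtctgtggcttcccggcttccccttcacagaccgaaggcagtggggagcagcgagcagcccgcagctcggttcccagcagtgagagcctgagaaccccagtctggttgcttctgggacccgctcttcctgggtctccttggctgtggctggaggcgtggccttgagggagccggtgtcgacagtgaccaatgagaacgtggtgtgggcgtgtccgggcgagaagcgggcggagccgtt
Slc25a36, chr9:97111042-97111291, minus strand: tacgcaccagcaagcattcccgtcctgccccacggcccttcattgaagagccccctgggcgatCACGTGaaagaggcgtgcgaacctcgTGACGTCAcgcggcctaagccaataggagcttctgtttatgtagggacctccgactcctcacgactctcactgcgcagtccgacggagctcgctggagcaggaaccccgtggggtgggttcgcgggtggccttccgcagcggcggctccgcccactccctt
Slc25a33, chr4:149774268-149774517, minus strand: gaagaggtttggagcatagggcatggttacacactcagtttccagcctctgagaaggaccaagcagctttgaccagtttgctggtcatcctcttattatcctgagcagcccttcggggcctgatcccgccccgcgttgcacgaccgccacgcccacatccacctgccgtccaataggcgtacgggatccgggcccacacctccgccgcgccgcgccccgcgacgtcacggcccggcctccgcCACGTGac
Slc25a36 held the E-box 187 bases and the cAMP response element 161 bases before its start, and Slc25a33 held an E-box 8 bases before its start. Neither motif was found in the Slc25a30 window. The RefSeq promoter table held 31 of the 40 members with 39 promoters. An E-box on either strand was found in 7 of these (17.9%) and in 6.02% of all 32851 promoters in the table. The members had passed a count rule and the promoters at large had not. These shares, and those of the other motifs below, are therefore not matched. The members with an E-box were Slc25a1, Slc25a13, Slc25a14, Slc25a15, Slc25a33 and Slc25a36. Of these 6, 1 was called higher in knockout-labelled muscle at rest and 1 after exercise (1.8% and 2.67% of all genes). At rest 0 of the 6 were called lower, and after exercise 1 (2.06% and 3.75% of all genes). Of the 25 members without an E-box, 0 were called higher and 1 lower in each comparison. The median log2 fold change at rest was -0.07 with an E-box and 0.05 without, and after exercise -0.13 and -0.03. The cAMP response element was in 5.13% of the members' promoters (Slc25a25 and Slc25a36) and in 1.55% of all. The nuclear receptor motif AGGTCA was in 12.8% against 14.0%, and the D-box forms TTATGTAA and TTACGTAA were in 0% against 0.931%. A match is a description of the letters and not evidence of binding.

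Library totals ran from 8045154 to 11269812 counts, of which the 40 members took 0.412% to 0.655%. The Arntl level was not lower in the knockout-labelled groups. At rest it was 9.7, 9.9, 12.8, 14.3 and 14.9 CPM (counts scaled to 1e6 per library) in the 5 vehicle samples and 15.9, 16.4, 12.7, 15.3 and 12.1 CPM in the 5 knockout samples (exact two-sided permutation p = 0.159). After exercise it was 7.9, 17.9, 9.2, 21.4 and 15.1 CPM in vehicle and 11.5, 15.5, 21.2, 20.1 and 13.8 CPM in knockout (exact two-sided permutation p = 0.429). Gene totals include reads from exons outside a deletion and from cells without recombination, so they do not show whether Bmal1 was recombined, and the groups are therefore called knockout-labelled. Fast-fibre markers were high in every library, with a mean log2 CPM of 13.1 to 13.5. Slow-fibre markers varied widely within groups and are given below with the carriers that moved with them. Of 32 comparisons of 8 marker lists between groups, 0 had an adjusted exact permutation p under 0.05, and 0 an unadjusted one.

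Carrier levels spanned more than 3 orders of magnitude when compared per length of the longest annotated transcript. Slc25a4, the ADP/ATP translocase of heart and muscle, stood at 1620 ± 157 CPM per kb (SD, n = 20) and supplied 68.9% of the members' summed CPM per kb. The mitochondrial phosphate carrier Slc25a3 followed at 184 ± 34.4 CPM per kb, and the oxoglutarate/malate carrier Slc25a11 at 122 ± 21.5 CPM per kb. Ucp3 reached 88.6 ± 39.6 CPM per kb and the calcium-regulated aspartate/glutamate carrier Slc25a12 73.4 ± 6.11 CPM per kb. The SDs of Slc25a11 and Ucp3 and those of Ucp3 and Slc25a12 overlapped in this order, whereas Slc25a4 lay far above all others. The ubiquitous translocase Slc25a5 had 24.5 ± 4.73 CPM per kb.

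**Figure D1:**
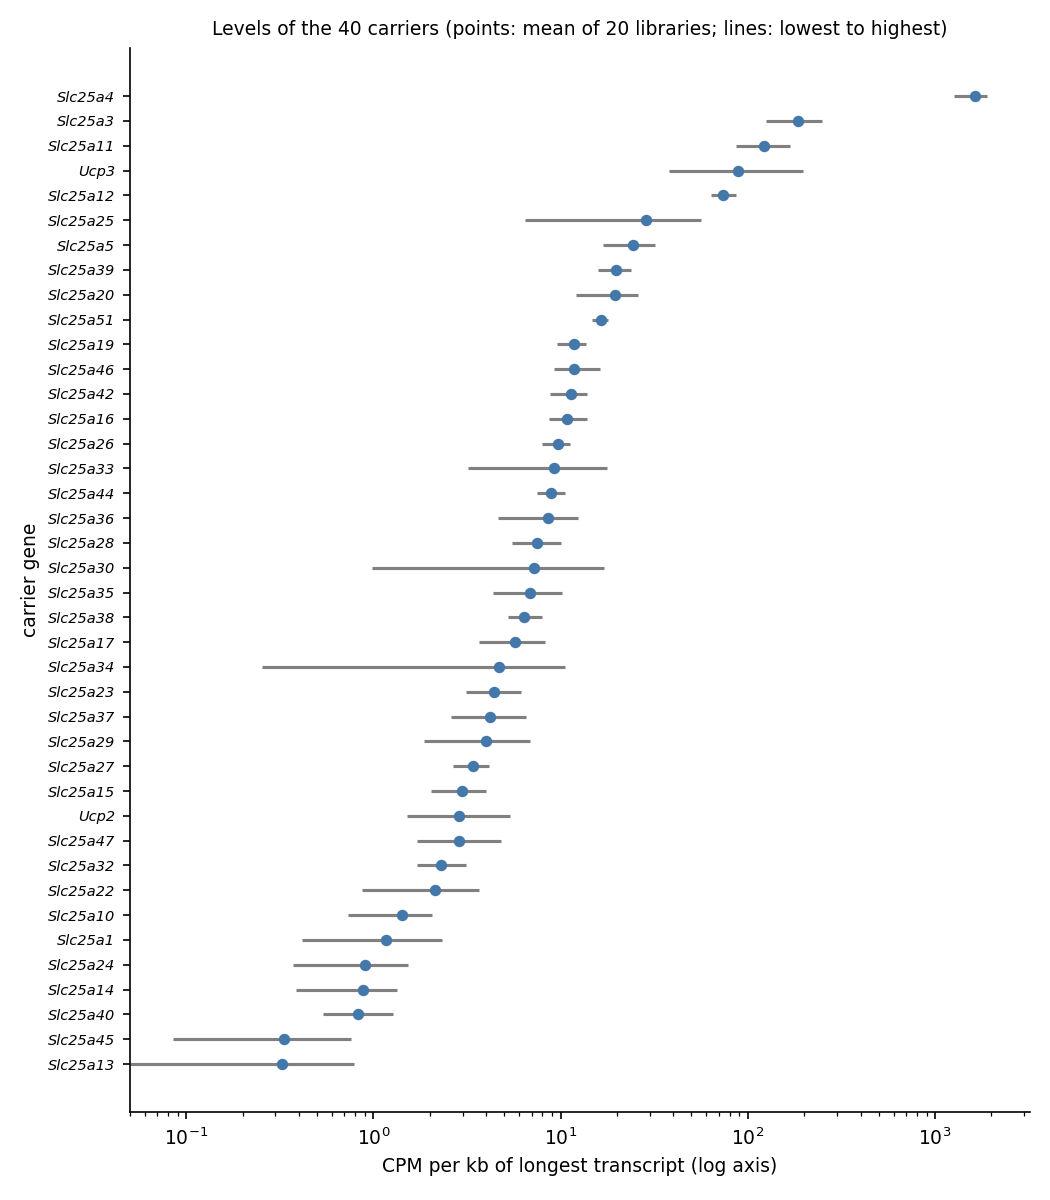
Mean level of each of the 40 carriers in CPM per kb of longest transcript on a log axis (points) with the lowest and highest of the 20 libraries (lines). Slc25a4 lies at 1620 and Slc25a13 at 0.327 CPM per kb; the line of Slc25a13, which had 0 counts in 1 library, runs to the left edge.

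At the low end, Slc25a45 was just inside the rule, with 2 to 17 counts per library and 7 libraries at 10 or more. Slc25a13, the liver-type aspartate/glutamate carrier, was inside with 0 to 24 counts and 9 such libraries. Slc25a53 was just outside, with 3 to 13 counts and 3 such libraries. The others left out were Slc25a2, Slc25a18, Slc25a21, Slc25a31, Slc25a41, Slc25a43, Slc25a48, Slc25a54 and Ucp1. Ucp1 had 0 counts in all 20 libraries, which allows up to 0.373 CPM in the shallowest (3 counts over its total, before TMM scaling). Its fellow brown-fat markers Cidea and Elovl3 had 0 to 20 and 0 to 8 counts. The steadiest member was the NAD+ carrier Slc25a51, at 65.3 to 79.0 CPM over all libraries, and the most variable with counts in every library was Slc25a34, a carrier without a settled substrate, whose highest library was 41.5 times its lowest.

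Knockout-labelled and vehicle muscle at rest differed in 3 of 40 carriers at an adjusted p under 0.05 (7.5%; 3.86% of all genes tested were called). Slc25a30 and Slc25a37 were lower, as were 2.06% of all genes, and Slc25a36 was higher, as were 1.8% of all genes. After exercise 3 of 40 differed (6.42% of all genes called), with Slc25a30 and Slc25a33 lower (3.75% of all genes) and Slc25a36 higher (2.67% of all genes). Among all genes called after exercise 41.6% were higher, and 53.1% when libraries were scaled by size only. The members' median log2 fold change was 0.03 at rest and -0.04 after exercise, beside 0.01 and 0.01 for all genes. These medians lay near 0, and 35 of 40 members at rest changed by less than 0.5 on the log2 scale. How many of all genes did so was not computed. The 2 genotype comparisons share no samples, and 28 of 40 members had the same sign in both, 14 higher and 14 lower. The share of all genes with the same sign was not computed, so this count has no baseline.

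**Figure D2:**
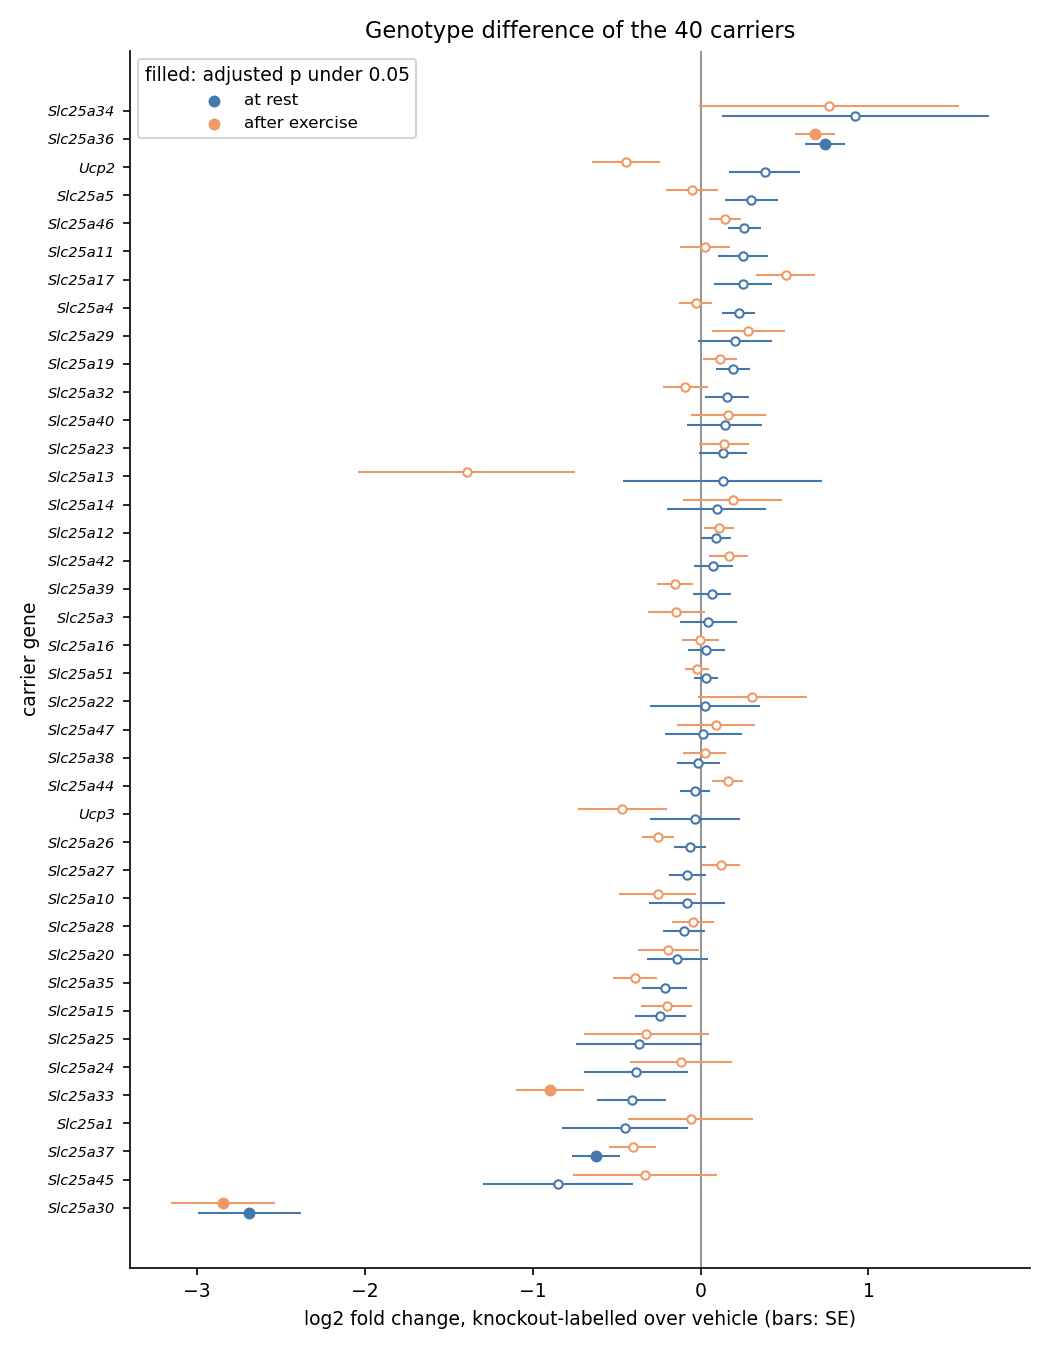
Log2 fold change of knockout-labelled over vehicle for the 40 carriers at rest (blue) and after exercise (orange), with bars of 1 SE and filled points at an adjusted p under 0.05. Slc25a30 stands apart at -2.69 and -2.85, and most carriers lie within 0.5 of 0.

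Slc25a30, a close sequence relative of the uncoupling proteins, had the largest genotype difference of any carrier in both states. At rest its level was 29.8, 43.4, 54.7, 43.4 and 58.4 CPM in vehicle and 5.8, 4.1, 11.2, 10.8 and 3.5 CPM in knockout-labelled muscle. After exercise it was 36.1, 57.2, 27.4, 41.2 and 60.8 CPM in vehicle and 5.0, 5.1, 5.8, 6.3 and 8.5 CPM in knockout. The genotype groups did not overlap in either state. Every knockout library stood below every vehicle library. The fall was 6.45-fold at rest (log2 fold change -2.69, SE 0.31, edgeR adjusted p = 2.54e-05). In exercised muscle it was 7.20-fold (-2.85, SE 0.31, edgeR adjusted p = 1.38e-05). Exercise itself did not move Slc25a30 detectably, and its interaction of genotype and exercise was -0.16 on the log2 scale (edgeR adjusted p = 0.992).

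Slc25a36 and Slc25a33 are both carriers of pyrimidine nucleotides, and their genotype differences had opposite signs. Slc25a36 at rest measured 40.1, 41.2, 34.6, 27.4 and 24.3 CPM in vehicle and 55.2, 64.4, 54.0, 48.1 and 58.6 CPM in knockout. After exercise it measured 35.8, 33.3, 36.7, 31.9 and 33.1 CPM in vehicle and 53.9, 64.3, 51.6, 50.5 and 54.1 CPM in knockout. All 10 knockout libraries lay above all 10 vehicle libraries. The rise at rest was 0.74 on the log2 scale (SE 0.12, edgeR adjusted p = 0.000414). The rise after exercise was 0.68 (SE 0.12, edgeR adjusted p = 0.000716).

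Slc25a33 at rest measured 16.8, 17.2, 18.5, 16.98 and 13.9 CPM in vehicle and 13.7, 12.2, 12.3, 11.5 and 12.99 CPM in knockout. Although these ranges did not overlap, the difference of -0.41 was not called (SE 0.21, edgeR adjusted p = 0.37). With only the 2 resting groups in the model the adjusted p was 0.0306. Under 19 of 22 alternative fits the difference was not called, with an adjusted p of up to 0.573. After exercise Slc25a33 measured 31.8, 23.2, 33.5, 21.8 and 20.2 CPM in vehicle and 16.7, 6.0, 16.7, 11.9 and 18.4 CPM in knockout. Again every knockout library was below every vehicle library, and the fall of 0.90 on the log2 scale was called (SE 0.20, edgeR adjusted p = 0.00815). The call was lost with only both exercised groups in the model (adjusted p = 0.0917). Slc25a33 shares 281 of its 1887 exon bases with the antisense gene Gm13068, which had 26 to 178 counts. Whether the authors' counting used strand is not given in the sources used here, so reads in the shared bases cannot be assigned to either gene.

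Slc25a37 encodes mitoferrin-1, an importer of iron known best from developing red cells. At rest it measured 24.6, 24.5, 26.6, 35.6 and 35.1 CPM in vehicle and 20.02, 15.4, 21.7, 17.6 and 20.1 CPM in knockout, without overlap. The fall was 0.62 on the log2 scale (SE 0.14, edgeR adjusted p = 0.00995). After exercise it measured 26.6, 30.4, 22.6, 38.5 and 29.1 CPM in vehicle and 20.7, 22.3, 20.9, 27.4 and 19.97 CPM in knockout. These ranges overlapped and the difference of -0.40 was not called (edgeR adjusted p = 0.0878). Without replicate 3 of exercised vehicle the adjusted p was 0.0348. With any other replicate left out it was up to 0.268, and the difference was not called. The 5 blood markers summed to 58.7 to 287 CPM in vehicle and 73.3 to 136 CPM in knockout at rest, and their score did not differ detectably (exact permutation p = 0.857). After exercise they summed to 57.7 to 366 CPM in vehicle and 48.1 to 139 CPM in knockout, and the difference in their score, knockout minus vehicle, was -0.75 on the log2 scale (exact permutation p = 0.198). Of the 5, Hba-a2 was called lower there (log2 fold change -1.90, edgeR adjusted p = 0.0198). Their part in the Slc25a37 results was not tested. The other iron importer, Slc25a28 or mitoferrin-2, measured 29.6 ± 6.11 CPM (SD, n = 5) in vehicle and 27.5 ± 1.47 CPM in knockout at rest and was not called.

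**Figure D3:**
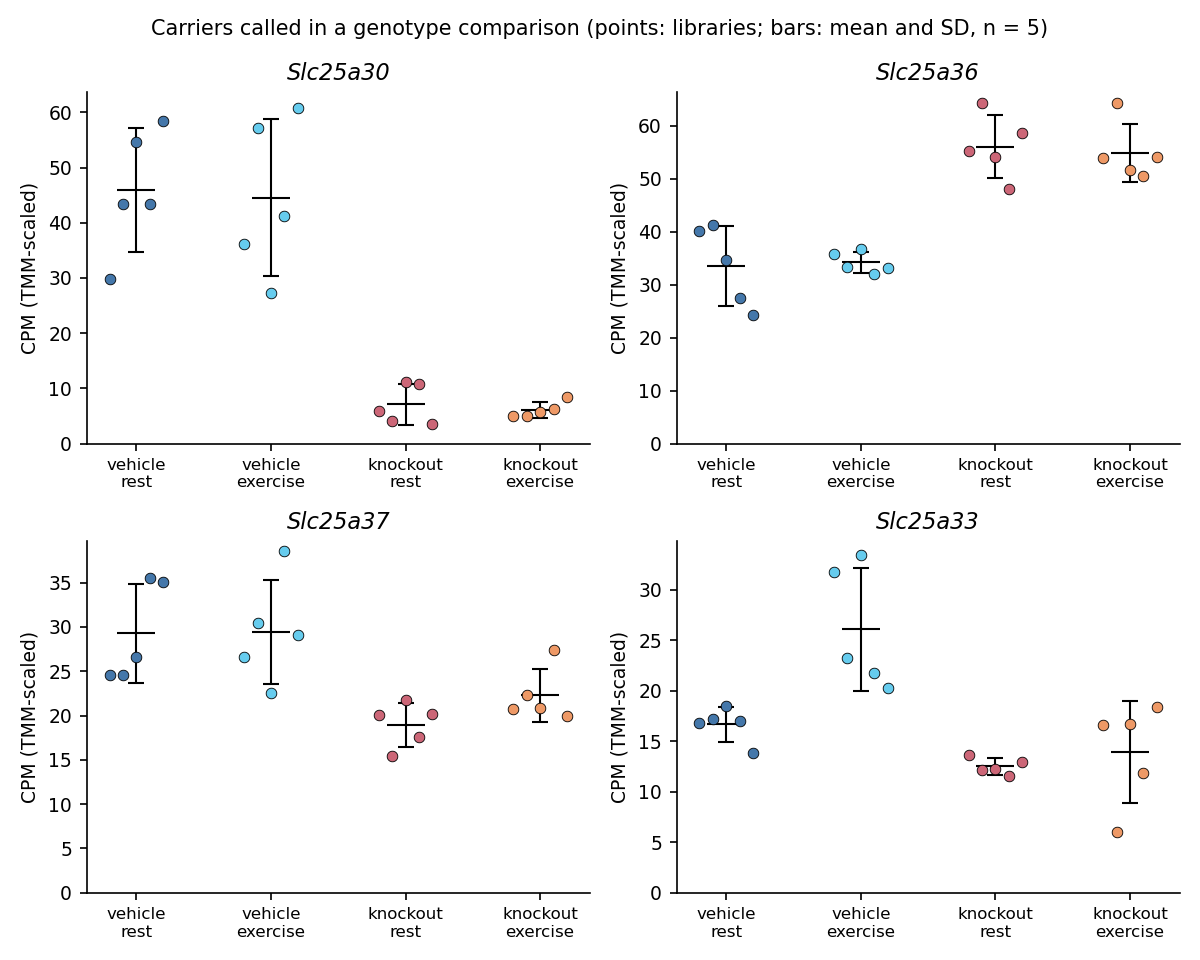
Levels in CPM of the 4 carriers called in a genotype comparison, by group, with 1 point per library and bars for mean and SD (n = 5). Slc25a30 runs at 27.4 to 60.8 CPM in vehicle and 3.5 to 11.2 CPM in knockout-labelled muscle; Slc25a36 is shifted the other way.

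Ranges also did not overlap between genotypes at rest for Slc25a4, which made 5 of 40 carriers in all (12.5%; 5.8% of all genes). Slc25a4 measured 2923, 2865, 2907, 3008 and 2886 CPM in resting vehicle and 3378, 3641, 3271, 3311 and 3480 CPM in resting knockout. The vehicle libraries lay within a narrow band below all knockout libraries. The difference of 0.23 on the log2 scale was not called (SE 0.10, edgeR adjusted p = 0.266). After exercise the Slc25a4 ranges of 2838 to 3484 CPM in vehicle and 2437 to 3379 CPM in knockout overlapped. After exercise 3 of 40 carriers did not overlap between genotypes (7.5%; 6.29% of all genes), namely Slc25a30, Slc25a33 and Slc25a36.

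Exercise in vehicle called 0 of 40 carriers with edgeR, beside 0.804% of all genes. At an unadjusted p under 0.05 there were 4 (10%; 8.92% of all genes), which were Ucp2, Ucp3, Slc25a25 and Slc25a33. All 4 were higher after exercise, as were 4.72% of all genes at that p. DESeq2 called 2 of them, Ucp2 and Ucp3 (1.44% of all genes), and limma-voom called 0 (0.597% of all genes). In knockout-labelled muscle exercise called 0 of 40 with edgeR, DESeq2 and limma-voom, as it did of all genes (0%). There 2 members, Slc25a25 and Ucp3, had an unadjusted p under 0.05 (5%; 4.71% of all genes).

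Ucp3 was the most abundant uncoupling protein. Its level in vehicle was 110.7, 92.5, 162.0, 219.5 and 210.3 CPM at rest and 185.5, 331.0, 210.2, 480.9 and 396.6 CPM after exercise. In knockout it was 201.1, 155.1, 151.1, 136.9 and 131.8 CPM at rest and 189.7, 302.1, 235.0, 253.9 and 180.0 CPM after exercise. The means were higher after exercise in both genotypes, yet resting and exercised libraries overlapped in each. The log2 difference was 1.01 in vehicle (SE 0.27, edgeR adjusted p = 0.112) and 0.58 in knockout (SE 0.27, edgeR adjusted p = 1). In a model that also held a score of slow-fibre markers (given further on), the difference in knockout was 0.29 (SE 0.26) and that in vehicle 0.88 (SE 0.24), neither called. The adjusted p in vehicle was 0.0492 without replicate 1 of exercised vehicle and 0.00726 with DESeq2. Under the other 20 of 22 alternative fits the vehicle difference was not called, with an adjusted p of up to 0.458.

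Ucp2, which is widespread and abundant in immune cells, had 8.9, 10.6, 9.6, 7.0 and 6.0 CPM in resting vehicle and 12.0, 14.0, 17.5, 21.4 and 11.1 CPM in exercised vehicle. These ranges did not overlap, as was true of 3 of 40 carriers in this comparison (7.5%; 2.04% of all genes), the others being Slc25a25 and Slc25a33. All 3 were higher after exercise (1.18% of all genes). The log2 difference of 0.84 missed the threshold (SE 0.21, edgeR adjusted p = 0.0575). It was called without replicate 5 of exercised vehicle (adjusted p = 0.0286) and with DESeq2 (adjusted p = 0.0118). A model with the slow-fibre score also called it (adjusted p = 0.0267). Under the other 19 of 22 alternative fits it was not called, with an adjusted p of up to 0.5. In knockout, Ucp2 was 12.6, 14.8, 7.3, 10.03 and 10.4 CPM at rest and 8.0, 9.1, 13.02, 12.4 and 13.1 CPM after exercise. Those libraries overlapped throughout, with a log2 difference of 0.02. The interaction of -0.83 was not called (SE 0.29, unadjusted p = 0.00981, edgeR adjusted p = 0.756), so a different response of the genotypes was not shown. The 6 immune markers summed to 41.5 to 75.0 CPM in resting vehicle and 30.8 to 69.7 CPM in exercised vehicle. Their part in the Ucp2 values was not tested.

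Slc25a25, a calcium-regulated carrier of ATP-Mg and phosphate, had similar differences in both genotypes. In vehicle it measured 57.5, 70.6, 83.8, 87.7 and 86.1 CPM at rest and 184.5, 215.4, 109.4, 214.3 and 115.1 CPM after exercise. In knockout it measured 29.5, 24.7, 51.7, 128.3 and 64.0 CPM at rest and 169.1, 201.0, 98.5, 104.6 and 96.9 CPM after exercise. The vehicle ranges did not overlap, whereas resting knockout replicate 4 lay among the exercised libraries. The log2 difference was 1.12 in vehicle (SE 0.38, edgeR adjusted p = 0.283) and 1.17 in knockout (SE 0.38, edgeR adjusted p = 1). With only the vehicle groups in the model the adjusted p was 0.0462. Without replicate 4 of resting knockout the difference in knockout was 1.66 on the log2 scale, still not called. Slc25a23, another carrier of this kind, stood at 15.6 ± 2.17 CPM (SD, n = 5) in resting and 12.8 ± 1.98 CPM in exercised vehicle, and at 17.2 ± 3.17 and 14.0 ± 2.52 CPM in knockout. Its differences of -0.29 in both genotypes were not called. Slc25a25 and Ucp2 overlap the antisense genes Naif1 (24 to 48 counts) and Dnajb13 (0 to 7 counts) in their exons.

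Slc25a33 was the remaining member with an unadjusted p under 0.05 in vehicle, with 16.7 ± 1.70 CPM at rest and 26.1 ± 6.08 CPM after exercise (SD, n = 5). The log2 difference of 0.65 was not called (SE 0.20, edgeR adjusted p = 0.192). In knockout its means were 12.5 ± 0.821 and 14.0 ± 5.05 CPM.

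**Figure D4:**
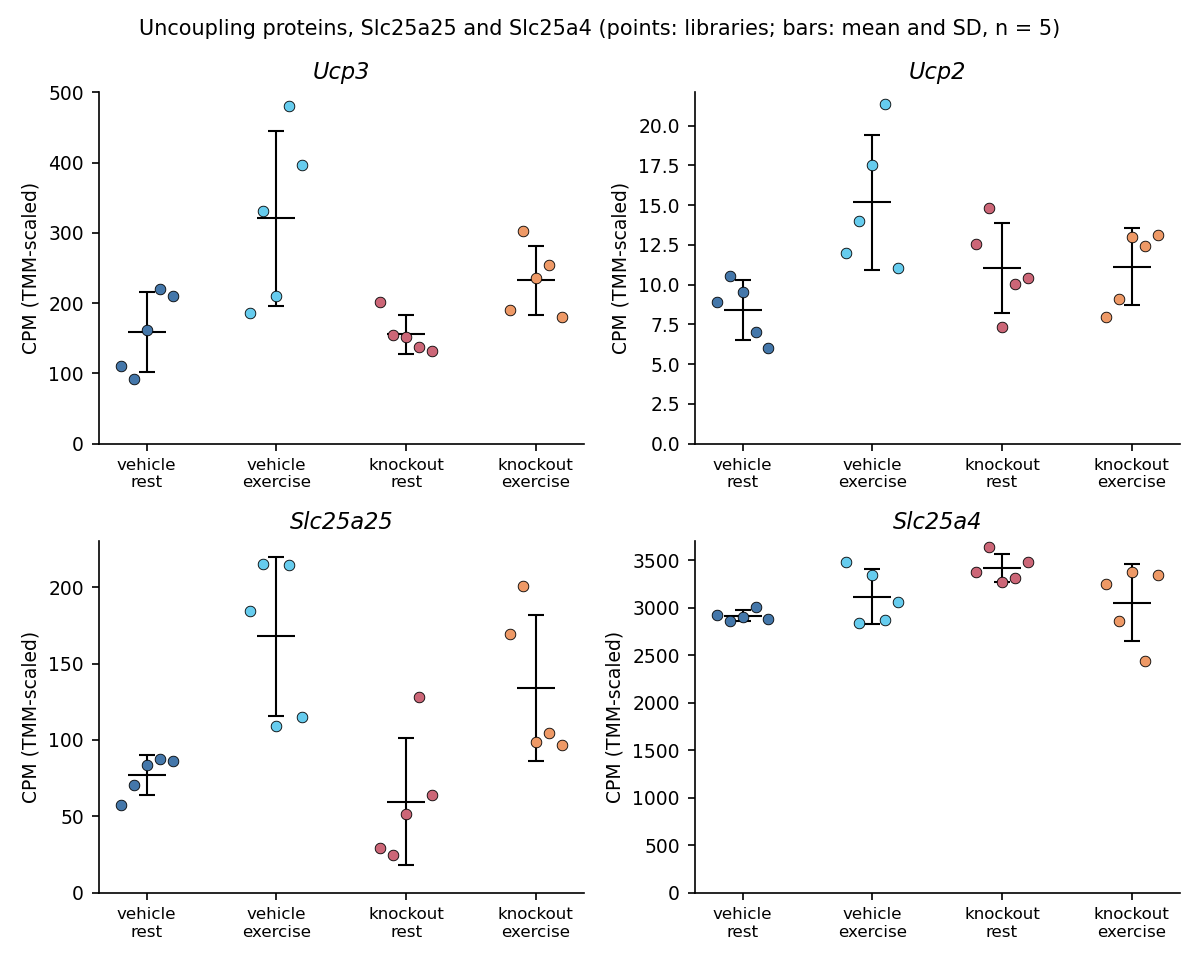
Levels in CPM of Ucp3, Ucp2, Slc25a25 and Slc25a4 by group, with 1 point per library and bars for mean and SD (n = 5). In vehicle the exercised Slc25a25 libraries at 109.4 to 215.4 CPM lie above the resting ones at 57.5 to 87.7 CPM, while in knockout-labelled muscle they overlap.

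The interaction called 0 of 40 carriers (0% of all genes), and Ucp2 alone had an unadjusted p under 0.05 (2.5%; 5.83% of all genes). DESeq2 also called 0 carriers (0.0221% of all genes), as did limma-voom (0%). The next smallest p-values belonged to Slc25a4, with an interaction of -0.26 (edgeR adjusted p = 0.871), and Slc25a13, with -1.53 (SE 0.88, edgeR adjusted p = 0.89). Slc25a13 was at the edge of detection, with 0 to 8 counts in exercised knockout, so it passed the count rule through the other groups.

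The remaining roles held no called member in any comparison. Both ADP/ATP translocases were uncalled, and so was the phosphate carrier Slc25a3, at 741 ± 127 CPM (SD, n = 5) in resting vehicle and 765 ± 171 CPM in resting knockout. The 3 aspartate/glutamate carriers and the 3 carriers of di- and tricarboxylates were not called. Slc25a12 measured 451 ± 31.9 CPM in resting vehicle and 481 ± 48.5 CPM in resting knockout, and Slc25a11 measured 191 ± 29.9 and 227 ± 41.1 CPM. The carnitine/acylcarnitine carrier Slc25a20, at 57.7 ± 12.1 and 52.4 ± 8.74 CPM, and the other 4 carriers in its group were not called. Slc25a44, a carrier of branched-chain amino acids, measured 31.8 ± 4.08 and 31.0 ± 1.44 CPM. Slc25a46, an outer-membrane protein of the family that acts in mitochondrial dynamics, measured 46.0 ± 4.32 and 55.2 ± 9.37 CPM, and its difference of 0.26 at rest was not called (SE 0.10, edgeR adjusted p = 0.169).

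Of 40 other genes of mitochondrial transport and fuel use, 39 were tested, and 3 were called in each genotype comparison, beside 3.86% of all genes at rest and 6.42% after exercise. The outer-membrane porin Vdac1 fell from 1226 ± 29.4 to 878 ± 76.4 CPM (SD, n = 5) at rest (edgeR adjusted p = 0.0113) and from 1229 ± 16.01 to 844 ± 172 CPM after exercise (edgeR adjusted p = 0.00315). Vdac2 and Vdac3 were not called. The pyruvate carrier subunit Mpc1 fell from 99.5 ± 12.5 to 71.6 ± 6.58 CPM at rest (edgeR adjusted p = 0.0137) and from 101 ± 11.9 to 69.7 ± 11.1 CPM after exercise (edgeR adjusted p = 0.00404). Its partner Mpc2 was not called in either state. Pdk4, a kinase that inhibits pyruvate dehydrogenase, was higher in knockout at rest, at 805 ± 294 against 437 ± 15.97 CPM in vehicle (edgeR adjusted p = 0.0478). After exercise Pdk4 was 1286 ± 311 CPM in knockout and 781 ± 260 CPM in vehicle. That difference had an edgeR unadjusted p under 0.05 but was not called. Mcu, the pore of the calcium uniporter, was higher in exercised knockout, at 35.7 ± 1.58 against 26.2 ± 4.37 CPM in exercised vehicle (edgeR adjusted p = 0.00664). At rest Mcu was 33.9 ± 2.99 CPM in knockout and 27.1 ± 2.19 CPM in vehicle. This difference too had an edgeR unadjusted p under 0.05 but was not called. None of the 39 was called by edgeR in the exercise comparisons or the interaction, where 3 in vehicle, 2 in knockout and 1 for the interaction had an unadjusted p under 0.05 (8.92%, 4.71% and 5.83% of all genes). The shuttle enzymes Got1, Got2, Mdh1 and Mdh2, the carnitine shuttle and the import machinery of carriers held no called gene.

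Many carriers moved across libraries with the slow-fibre markers. The 8 markers, among them the slow myosin Myh7, summed to 48.4 to 3924 CPM, and their mean log2 CPM served as a score. The score was 2.65 to 8.05 in resting vehicle, 0.10 to 8.002 in exercised vehicle, 4.56 to 8.64 in resting knockout and 0.87 to 7.92 in exercised knockout. It did not differ detectably between groups (smallest exact permutation p = 0.143, between exercised and resting knockout), and 5 libraries lay below 3. They were 1 of resting vehicle, 2 of exercised vehicle and 2 of exercised knockout. In bulk muscle, fewer fibres of a type and less RNA per fibre cannot be told apart.

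Of 40 correlations with the score over the 20 libraries, 19 had an adjusted permutation p under 0.05, of which 15 were positive and 4 negative. The permutations disregarded group, so differences between groups enter r, rho and their p-values. Correlations of all other genes were not computed, so the count does not show whether carriers differ from other genes. Slc25a34 had the highest, with Pearson r = 0.87 (permutation p = 1e-05, the smallest that 100000 permutations can give, adjusted 0.000267) and Spearman rho = 0.72 (permutation p = 0.00047, adjusted 0.0047). Its r was 0.80 without the 2 farthest libraries and 0.95 after subtracting group means. In libraries with a score under 3 Slc25a34 ran from 0.683 to 3.24 CPM, and in the other 15 from 2.95 to 28.4 CPM. It was singled out after its values were seen. Slc25a3 followed with r = 0.83 (permutation p = 2e-05, adjusted 0.000267) and rho = 0.82 (permutation p = 2e-05, adjusted 0.0008), and r was 0.83 without the 2 farthest libraries. Slc25a20 had r = 0.82 (permutation p = 4e-05, adjusted 0.0004) and rho = 0.79 (permutation p = 6e-05, adjusted 0.0008), with r = 0.78 without those libraries. Slc25a11 had r = 0.78 and rho = 0.80, and Slc25a4 had r = 0.71 and rho = 0.69 (adjusted permutation p = 0.00056 and 0.00286 for r, 0.0008 and 0.00673 for rho). Without the 2 farthest libraries their r was 0.76 and 0.58.

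Negative relations were seen for Slc25a25 (r = -0.63, rho = -0.68, adjusted permutation p = 0.0147 and 0.0071), Ucp3 (r = -0.61, rho = -0.61, adjusted permutation p = 0.0152 and 0.0154), Slc25a44 and Slc25a16. For Slc25a16 r went from -0.62 to -0.29 without the 2 farthest libraries, so the relation rests on those samples. In all, 16 of the 19 kept their sign and an absolute r of at least 0.5 without them. Of the carriers called between genotypes, none had an adjusted permutation p of r under 0.05. Slc25a30 had r = -0.14 and Slc25a36 r = 0.22, and after subtracting group means -0.36 and 0.43. Slc25a33 had r = 0.28 and Slc25a37 r = -0.49, and after subtracting group means 0.70 and -0.64. The rho of Slc25a37 was -0.53 (adjusted permutation p = 0.0441).

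**Figure D5:**
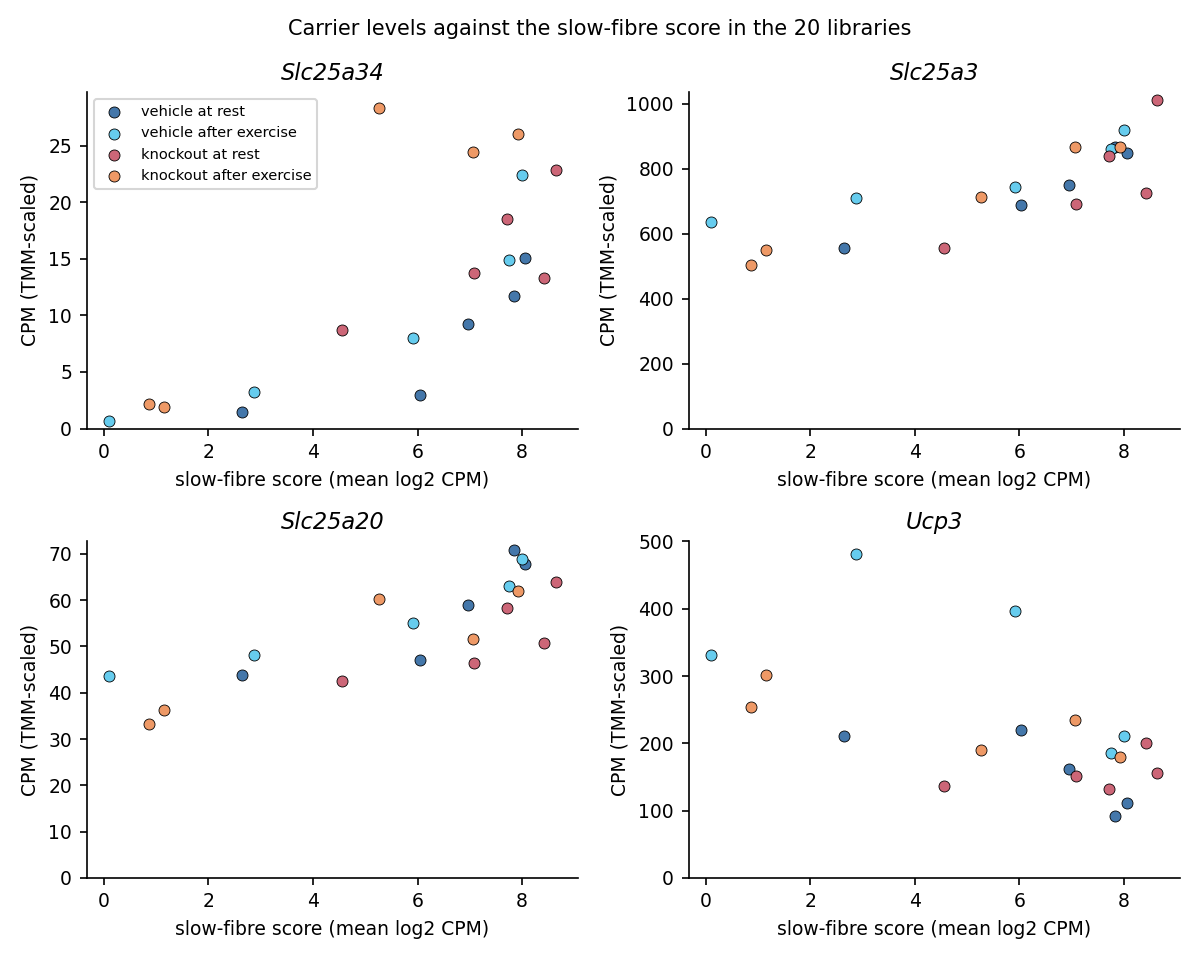
Levels in CPM of Slc25a34, Slc25a3, Slc25a20 and Ucp3 against the slow-fibre score (mean log2 CPM of 8 markers), with 1 point per library coloured by group. The first 3 are higher in libraries of higher score (r = 0.87, 0.83 and 0.82), and Ucp3 is lower (r = -0.61).

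With the score as a covariate, the carriers called between genotypes at rest were Slc25a30, Slc25a36, Slc25a37 and Slc25a33 (adjusted p = 0.0476), beside 6.27% of all genes. After exercise 7 were called (10.5% of all genes), adding Slc25a37 (adjusted p = 0.0144), Slc25a35 (0.0354), Slc25a17 (0.0426) and Slc25a34 (0.0438) to the former 3. Slc25a35 shares 1151 of its 3677 exon bases with the antisense gene Rangrf, which had 110 to 249 counts beside 118 to 363 for Slc25a35, so its value is uncertain. Slc25a34 was 1.10 higher in exercised knockout on the log2 scale in that model (SE 0.33), against 0.76 without the covariate. For exercise in vehicle, Slc25a33 and Ucp2 were called with it (edgeR adjusted p = 0.00441 and 0.0267; 1.83% of all genes). Without the 5 libraries of low score, chosen after the data were seen, the genotype calls of Slc25a30, Slc25a36 and Slc25a37 at rest, and those of Slc25a30, Slc25a33 and Slc25a36 after exercise, remained. Of all genes, 4.14% and 2.21% were called in these comparisons. Exercise in vehicle then called Slc25a33 (adjusted p = 0.0253; 0.444% of all genes).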

How the data were processed

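Gastrocnemius RNA of 20 samples was sequenced. Per the labels' protocols, extraction used Trizol with a Qiagen kit and library preparation an Illumina kit; the strand setting of the counting is not given in the sources used here. The submitters' processing notes name Partek, STAR 2.7.8a, DESeq2 and the builds mm10 and GRCm39, without their roles. The authors deposited 1 table of whole-number counts per gene symbol.

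Genes were kept by filterByExpr (minimum count 10), which left 13560 genes with 99.83% of counts. Libraries were scaled by TMM, and edgeR 4.0.16 (robust quasi-likelihood, R 4.3.3) was fitted to all 20 samples with 1 mean per group. P-values were adjusted by Benjamini-Hochberg across these genes, with a threshold of 0.05, and SEs were derived from the F statistics. CPM values are TMM-scaled, and log2 CPM used a prior count of 2. DESeq2 1.42.0, limma 3.58.1 (voom), other scalings, filters, thresholds, a slow-fibre covariate, a replicate block and leaving out each replicate were alternatives. Scripts were tested on simulated data. No pair of libraries in a group agreed within counting noise (chi-square per degree of freedom at least 4.06). Transcript lengths and exon overlaps came from GENCODE M21, promoters from RefSeq.

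The members and gene lists were chosen with earlier results of these data known. Carriers named with values were those called in any comparison, the 3 of smallest p where none was called, the 5 most abundant per length, the uncoupling proteins, those at the edge of the count rule, and the most abundant of each remaining role. Slc25a34 and other carriers named only beside them were added after their values were seen. Counting intervals and floors cover counting error only.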

Additional observations from a re-analysis of the deposited data

Results flagged for a closer look

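Of 68 groups of 5 libraries examined for the 17 named carriers, 2 held a library far from the other 4, and chance flags about 1 in 20 groups. Slc25a36 in exercised knockout stood at 64.3 CPM in replicate 2, beside 50.5 to 54.1 CPM in the others. Without that library the genotype difference after exercise was still called. Slc25a46 in exercised knockout stood at 59.0 CPM in replicate 4, beside 52.6 to 54.0 CPM in the others.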

How the results depend on the processing

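The count of carriers called between genotypes at rest was 3, and 1 when a log2 fold change of at least 1 was also asked for. With the slow-fibre covariate, or with only the resting groups in the model, Slc25a33 was added and the count was 4. After exercise the count was 3, and became 7 with the slow-fibre covariate, 6 at an adjusted p under 0.10 and 1 with the fold-change minimum. Slc25a33 lost its call after exercise with only the exercised groups in the model (edgeR adjusted p = 0.0917). Leaving out 1 replicate at a time gave 3 at rest and 3 to 5 after exercise, the 5 without replicate 5 of exercised vehicle, which added Slc25a17 and Slc25a35. Exercise in vehicle called 0 carriers, but 2 with DESeq2, 1 with only both vehicle groups in the model, 2 with the covariate, 1 without the 5 libraries of low slow-fibre score, 1 at an adjusted p under 0.10, and 0 to 1 with a replicate left out (Ucp3 without replicate 1, Ucp2 without replicate 5 of exercised vehicle). The cause of these changes was not tested. Exercise in knockout and the interaction called 0 carriers under every alternative run. No called difference changed sign. Uncalled differences near 0 did with the covariate, such as Slc25a3 at rest (0.05 to -0.05) and Slc25a11 with exercise in knockout (-0.10 to 0.12). Apart from the fold-change minimum, which left Slc25a30 alone, Slc25a30 and Slc25a36 kept their calls in both states, with log2 fold changes of -2.91 to -2.51 and 0.63 to 0.82 at rest. So did Slc25a37 at rest, with an adjusted p of at most 0.0425. For Arntl, leaving out replicates gave differences of 0.15 to 0.32 at rest and 0.04 to 0.39 after exercise.

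With the replicate number as a block, 3, 3, 0, 0 and 0 carriers were called in the 5 comparisons, so that the replicate block changed no call. The labels tie same-numbered samples by nothing but the number. Of 30 such pairs, 15 had correlated deviations above 0.1 (r from -0.45 to 0.44), and 7 correlated best with their own number. Whether same-numbered samples were paired was not tested. Carriers with under 25 counts per library, such as Slc25a13 and Slc25a45, had SEs too large to show moderate differences.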
